A study of Mus musculus with 12 samples.

Results

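The genes described here are 7 transcription factors that pass the timing of the circadian clock on to other genes: Dbp, Tef, Hlf, Nfil3, Ciart, Bhlhe40 and Bhlhe41. They were taken by gene symbol, and each occurred once among the 47730 features of the deposited table of normalized counts. RNA sequencing was done on mutant muscle (BckdkM/M), wild-type muscle (Bckdk+/+), testis labelled mutant (BckdkM/M) and wild-type testis (Bckdk+/+), with 3 libraries in each group. Muscle was the gastrocnemius together with the plantaris. All mice were males of the strain labelled C57Bl/6J, backcrossed for 10 generations or more, and were 5 to 6 months old. Tissue was taken within 1 window of the light phase, from ZT6 to ZT7, where zeitgeber time counts hours from lights on, so a level could be measured but a rhythm could not. The product of Bckdk is a kinase that inhibits the breakdown of branched-chain amino acids, and how the mutant allele was made is not given in the sources used here. Letters stand for the mouse numbers in the column names: wild types A, B and C in both tissues, mutants D, F and G in muscle, and D, E and F in testis.

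In the mammalian clock, CLOCK and BMAL1 (the product of Arntl) switch on genes through a DNA element called the E-box, among them the Per and Cry genes, whose products then shut CLOCK and BMAL1 off. Dbp, Tef and Hlf are the PAR bZIP activators, which bind another element, the D-box, and carry the rhythm to enzymes of metabolism and detoxification. Nfil3 is a repressor of the same bZIP class that binds the same D-box. Ciart (also called CHRONO) represses CLOCK and BMAL1, and Bhlhe40 and Bhlhe41 (DEC1 and DEC2) are basic helix-loop-helix repressors that bind E-boxes. In peripheral tissues of mice kept in light and dark, Dbp transcript is known to be high in the light phase and Nfil3 transcript in the dark phase.

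The 12 libraries held 12852427 to 15795722 reads assigned to genes. Bckdk had 14.8, 14.3 and 12.4 normalized counts in muscle of mutants D, F and G, against 2214, 2421 and 2627 in muscle of wild types A, B and C. In testis it went against the labels, with 138, 119 and 114 in the libraries labelled mutant D, E and F, and 68.0, 73.3 and 71.0 in wild types A, B and C. Genotype directions in testis therefore rest on the labels and not on Bckdk in testis. Mouse numbers A, B, C, D and F also occur in muscle, where Bckdk went with the labels, while E does not. Whether equal numbers mean the same mouse is not stated in the labels. The tissue labels matched their markers: all 8 muscle fibre genes were higher in wild-type muscle than in wild-type testis and all 8 male germ cell genes were lower, each past the test. In muscle, genes of pancreatic islet cells summed to 33000 normalized counts in mutant F and 30983 in mutant G, whereas the other 4 libraries held 13648 to 16155. In testis this sum was 10767 to 13962 in libraries labelled mutant D, E and F and in wild-type C, while wild-type A held 19648 and wild-type B 19518.

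Of the 7 genes, 6 were higher in wild-type muscle than in wild-type testis, by 4.31-fold (Nfil3) to 33.0-fold (Bhlhe41), and Ciart did not pass the test. The comparison used limma on log2(normalized count + 1), with calls made where the p adjusted over all genes (Benjamini-Hochberg) was under 0.05. Among all 19994 genes tested, 37.3% were called higher and 50.6% lower in muscle. Bhlhe41 averaged 1561 ± 67.5 normalized counts in muscle and 47.3 ± 2.09 in testis (SD, n = 3 each), a log2 difference of 5.02 ± 0.10 (SE). Bhlhe40 followed with 29.7-fold and a log2 difference of 4.87 ± 0.17 (SE). Dbp was 21.3-fold higher, at 2312 ± 828 normalized counts in muscle and 109 ± 18.3 in testis (SD, n = 3 each). Hlf was 12.9-fold and Tef 8.38-fold higher. The 95% interval of the log2 difference of the D-box repressor Nfil3, 1.66 to 2.49, lay below those of the 3 D-box activators, which spanned 2.85 to 4.96; the contrast between genes was not tested. The 6 adjusted p-values lay between 2.28e-09 and 7.49e-06.

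Ciart was the exception, with 72.9, 213 and 261 normalized counts in muscle of wild types A, B and C, against 99.7, 96.6 and 81.0 in testis of wild types A, B and C. Muscle A lay below all 3 testis libraries while muscle B and C lay above them. The log2 difference was 0.79, with a 95% confidence interval from -0.21 to 1.79 and an adjusted limma p of 0.118. Without wild-type muscle A it was 1.35 with an adjusted p of 2.74e-04, and edgeR (adjusted p = 0.00707) and DESeq2 (adjusted p = 0.0040) called it on all libraries. Over its alternatives the adjusted p lay between 2.74e-04 and 0.355. The median log2 difference of all genes was -0.48, and -0.28 under TMM scaling, so all 7 differences lay above it under either.

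Per kilobase of exon, the order of the mean levels in wild-type muscle was Dbp (773 normalized counts per kilobase), Tef (653), Bhlhe40 (528), Bhlhe41 (232), Nfil3 (171), Ciart (80.6) and Hlf (59.4). Wild-type testis had another order, with Tef first (77.9 normalized counts per kilobase), followed by Ciart (40.9), Nfil3 (39.6), Dbp (36.3), Bhlhe40 (17.8), Bhlhe41 (7.03) and Hlf (4.62). Exon length here joins all annotated exons of a gene, which counts bases that some transcripts lack. In testis the summed muscle fibre markers ranged from 0.0205% of the wild-type muscle mean in wild-type B to 0.633% in wild-type C. In wild-type testis B, Dbp stood at 4.11% and Tef at 12.0% of their wild-type muscle means. Over the 6 testis libraries this share was 2.65% to 3.29% for Bhlhe41 and 2.71% to 3.695% for Bhlhe40.

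**Figure D1:**
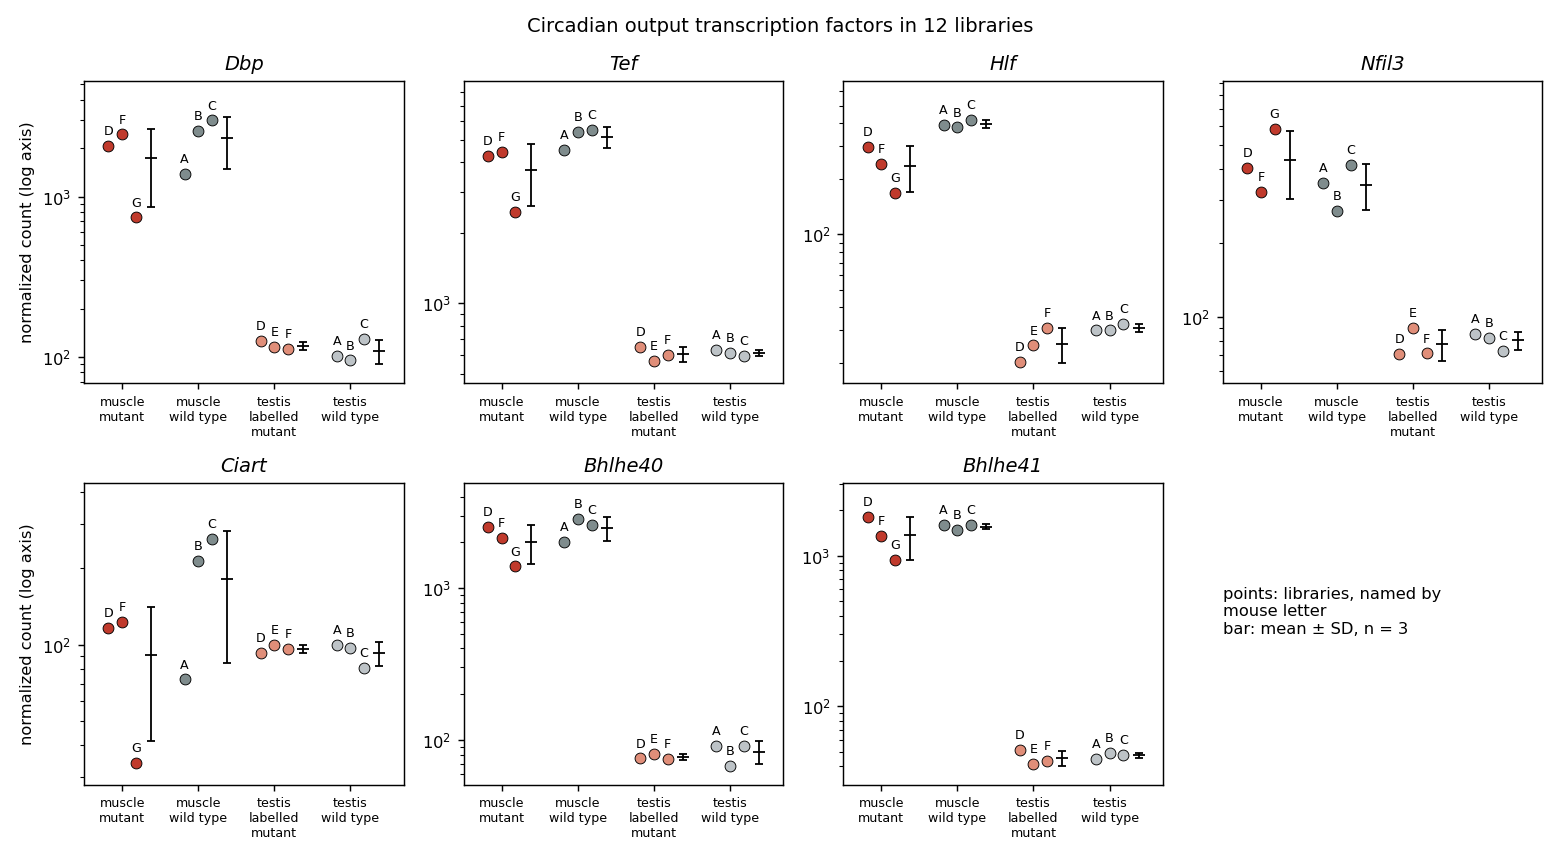
Normalized counts (log axis) of the 7 genes in mutant muscle, wild-type muscle, testis labelled mutant and wild-type testis; each point is a library with its mouse letter, and bars show mean ± SD (n = 3). All genes but Ciart were higher in every muscle library than in any testis library, and muscle library G was the lowest muscle library for all genes except Nfil3, where it was the highest.

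The 7 genes lie on 6 chromosomes of the GRCm38 build (GENCODE M21). Dbp (chr7:45705088-45710203, plus strand) is the only one on the chromosome of Bckdk, 82.2 Mb from it. Tef lies at chr15:81802421-81826863 on the plus strand, Hlf at chr11:90336536-90390895 on the minus strand and Nfil3 at chr13:52967209-52981073 on the minus strand. Ciart lies at chr3:95878503-95882251 on the minus strand. Bhlhe40 (chr6:108660629-108666925, plus strand) and Bhlhe41 (chr6:145858243-145865558, minus strand) share a chromosome. Exons of Sphk2 on the opposite strand cover 18.0% of the exonic bases of Dbp, and those of Gm43909 cover 19.0% of Bhlhe41. How the counting treated strand is not given in the sources used here, so reads from these pairs may not be told apart.

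The elements through which the clock is known to act were looked for in the 250 bases before each RefSeq start site (GRCm38.p6), on both strands. RefSeq entries were matched for 6 of the 7 genes, with Tef having 2 start sites. The E-box was CACGTG, found in 6.02% of 32851 promoters, the related CACGTT in 3.85%, the D-box was TTATGTAA or TTACGTAA (0.931%), the RRE (the element of the REV-ERB receptors) TAGGTCA or TGGGTCA (5.38%), and the cAMP response element TGACGTCA (1.55%). The Dbp window holds none of these letters. Those of the other 5 genes with an entry hold at least 1, and the stretches below are cut from them, of at most 30 bases around an element and, for Ciart, 227 of the 250 bases. They are in lower case with the element in capitals, 5′ to 3′ on the strand of the gene, and the coordinates are those of the stretches. The Ciart stretch, at chr3:95882252-95882478 on the minus strand, holds 3 E-boxes. Both Tef stretches, at chr15:81802534-81802563 and chr15:81811264-81811293 on the plus strand, hold 1 E-box each, as does Bhlhe41 at chr6:145865556-145865585 on the minus strand. Hlf, at chr11:90390918-90390938 on the minus strand, holds a cAMP response element, and Nfil3, at chr13:52981040-52981063 on the minus strand, holds an RRE read on the opposite strand. GENCODE starts some transcripts further upstream, so all 30 bases of the first Tef stretch, all 24 of Nfil3 and 3 of Bhlhe41 lie within annotated exons of these genes. The Dbp window, chr7:45704997-45705246 on the plus strand, likewise runs past the GENCODE start of Dbp at 45705088. Elements outside the windows were not looked for. A match is a description of these letters and not evidence of a bound factor.
Ciart: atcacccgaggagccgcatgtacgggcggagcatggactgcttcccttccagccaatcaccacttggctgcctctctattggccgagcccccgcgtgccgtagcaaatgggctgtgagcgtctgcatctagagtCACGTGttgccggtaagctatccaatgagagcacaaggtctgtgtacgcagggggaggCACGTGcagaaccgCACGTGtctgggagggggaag
Tef, first start site: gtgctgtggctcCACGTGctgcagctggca
Tef, second start site: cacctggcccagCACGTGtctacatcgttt
Bhlhe41: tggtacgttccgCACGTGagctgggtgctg
Hlf: cggtgcgggcccTGACGTCAc
Nfil3: ggcgctcggaacTGACCTActaac

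In muscle, 0 of the 7 genes passed the test between mutant and wild type. The 3 D-box activators and the 3 E-box repressors had lower means in mutant muscle, and the D-box repressor Nfil3 had a higher one. Among all 16246 genes tested in muscle, 9019 had lower means, and 6 were called, or 0.0369%. edgeR and DESeq2 also called 0 of the 7. At an unadjusted p below 0.05 there were 2, Tef and Hlf, both with lower means, while 6.31% of all genes were lower by that rule. The median log2 difference of the 7 was -0.50, against -0.04 over all genes tested.

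Hlf, a PAR bZIP activator first known from a human leukaemia fusion, had 299, 240.4 and 167 normalized counts in muscle of mutants D, F and G, against 392, 381 and 417 in wild types A, B and C. All 3 mutants lay below all 3 wild types. The means were 235 ± 66.1 and 397 ± 18.7 (SD, n = 3 each), and the log2 difference was -0.79 ± 0.20 (SE), with a 95% confidence interval from -1.24 to -0.34. Its unadjusted limma p was 0.00252, which ranked 62 among the genes tested, and its adjusted p was 0.519. Without mutant D it passed, with a log2 difference of -0.98 and an adjusted p of 0.0296 by limma. That fit kept mutants F and G, the muscle libraries with more islet transcripts. It called 497 of 15964 genes, 408 of them lower, against 6 with all libraries. Over all 18 alternatives the Hlf difference lay between -0.98 and -0.41, and it was called in 1. Within the mutants the highest library was 1.79 times the lowest, and within the wild types 1.095 times.

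Tef, an activator first known from thyrotroph cells of the pituitary, had 4278, 4422 and 2449 normalized counts in muscle of mutants D, F and G, against 4524, 5386 and 5509 in wild types A, B and C. The groups did not overlap, but mutant F lay just below wild-type A, and mutant G stood apart from both other mutants. The log2 difference was -0.51 ± 0.22 (SE), with an interval from -0.99 to -0.04 and an adjusted limma p of 0.519. Without mutant G it was -0.24. Tef and Hlf were the 2 of 7 genes whose groups did not overlap, both lower in mutants, and 8.85% of all genes were lower without overlap.

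Dbp, the activator with the widest known daily swing, had 2069.9, 2439.7 and 739.8 normalized counts in muscle of mutants D, F and G, against 1386, 2569.9 and 2981 in wild types A, B and C. The groups overlapped: wild-type A lay below mutants D and F. The log2 difference was -0.50 ± 0.40 (SE), with an interval from -1.39 to 0.39 and an adjusted limma p of 0.647. Without mutant G it was 0.03. The highest Dbp library was 3.30 times the lowest within the mutants and 2.15 times the lowest within the wild types.

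Nfil3 had 404, 323 and 585 normalized counts in muscle of mutants D, F and G, against 351, 271 and 416 in wild types A, B and C. The groups overlapped, with mutant G above all other libraries and wild-type B below them. Its log2 difference was 0.32 ± 0.23 (SE), with an interval from -0.18 to 0.82 and an adjusted limma p of 0.616. Without mutant G it was 0.08.

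**Figure D2:**
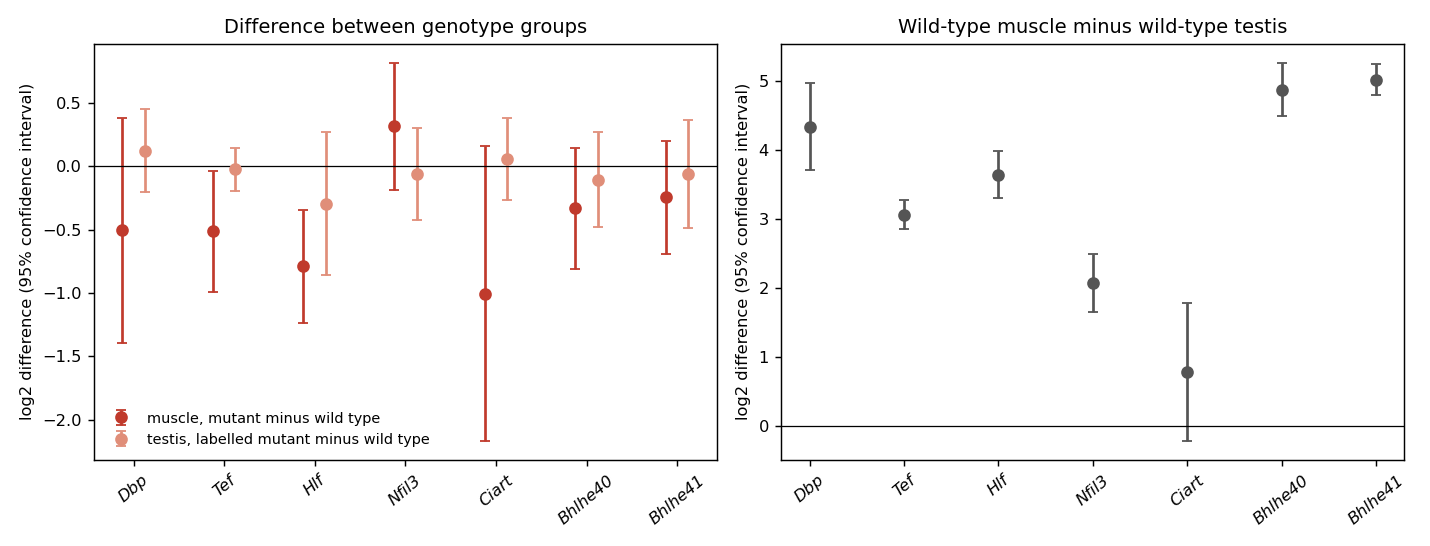
Log2 differences with 95% confidence intervals for the 7 genes: mutant minus wild type in muscle and labelled mutant minus wild type in testis on the left, wild-type muscle minus wild-type testis on the right. On the left the muscle intervals of Tef and Hlf lie below 0 and all others include 0; on the right only the interval of Ciart includes 0.

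The balance of D-box activators to their repressor was taken per library as the log2 ratio of each activator to Nfil3, per exonic base. For Hlf it was -2.16, -2.15 and -3.53 in muscle of mutants D, F and G, against -1.56, -1.23 and -1.72 in wild types A, B and C, without overlap. For Dbp it was 1.80, 2.35 and -0.23 in muscle of mutants D, F and G, against 1.42, 2.68 and 2.28 in wild types A, B and C. Mutant G was thus the only muscle library with less Dbp than Nfil3 per exonic base. The Tef ratio was 1.45, 1.82 and 0.11 in muscle of mutants D, F and G, against 1.73, 2.36 and 1.77 in wild types A, B and C. In testis the Dbp ratio lay between -0.20 and 0.26 in the libraries labelled mutant and between -0.36 and 0.27 in wild types. No test was run on these ratios.

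**Figure D3:**
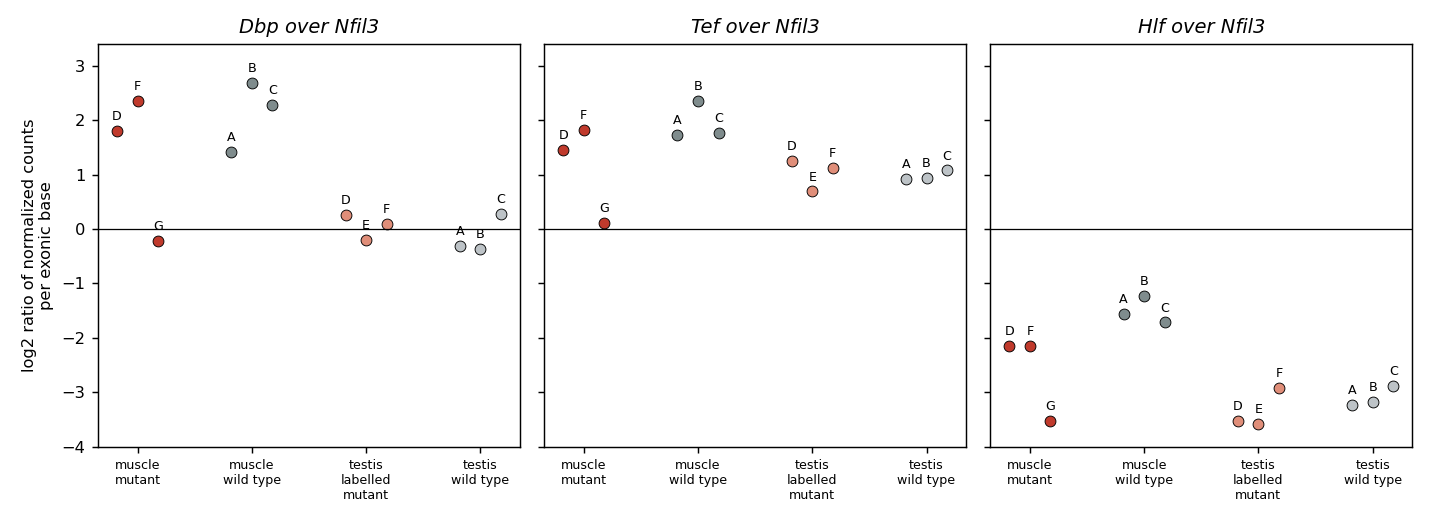
Log2 ratio of Dbp, Tef and Hlf to Nfil3, in normalized counts per exonic base, for each library (points with mouse letters) of the 4 groups. The ratios of muscle mutant G are the lowest among the muscle libraries for all 3 activators, and for Dbp and Hlf they lie at the level of the testis libraries.

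Ciart, the CLOCK and BMAL1 repressor with 3 E-boxes in its window of 250 bases, had 116, 123 and 34.2 normalized counts in muscle of mutants D, F and G, against 72.9, 213 and 261 in wild types A, B and C. Wild-type A lay below mutants D and F, so the groups overlapped, and mutant G was lowest with 33 recovered reads. The log2 difference was -1.004 ± 0.53 (SE), with an interval from -2.17 to 0.16 and an adjusted limma p of 0.548. Without mutant G it was -0.41. The highest library was 3.60 times the lowest within the mutants and 3.58 times within the wild types.

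Bhlhe40 had 2524, 2136 and 1386 normalized counts in muscle of mutants D, F and G, against 2007, 2845 and 2606 in wild types A, B and C. Bhlhe41 had 1803, 1351 and 939.7 in muscle of mutants D, F and G, against 1597, 1483 and 1604 in wild types A, B and C. The groups of both overlapped, and for Bhlhe41 mutant D was the highest of all 6 libraries. The log2 differences were -0.33 for Bhlhe40, with an interval from -0.81 to 0.15, and -0.24 for Bhlhe41, with an interval from -0.69 to 0.20. Their adjusted limma p-values were 0.594 and 0.661. Without mutant G, Bhlhe40 differed by -0.08, and Bhlhe41 by 0.000219.

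Muscle library G stood apart for these genes. It was the lowest of the 6 muscle libraries for Dbp, Tef, Hlf, Ciart, Bhlhe40 and Bhlhe41 and the highest for Nfil3. Over all genes tested in muscle, G was lowest for 28.7% and highest for 23.6%. Relative to the wild-type mean, the median log2 deviation of the 7 genes was -0.09 in mutant D, -0.21 in mutant F and -1.06 in mutant G. Wild-type C was highest for Dbp, Tef, Hlf and Ciart, whereas it was highest for 25.0% of all genes. Wild-type A was low for Dbp (-0.66) and Ciart (-1.12) and close to the mean for Hlf (-0.02) and Bhlhe41 (0.03).

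**Figure D4:**
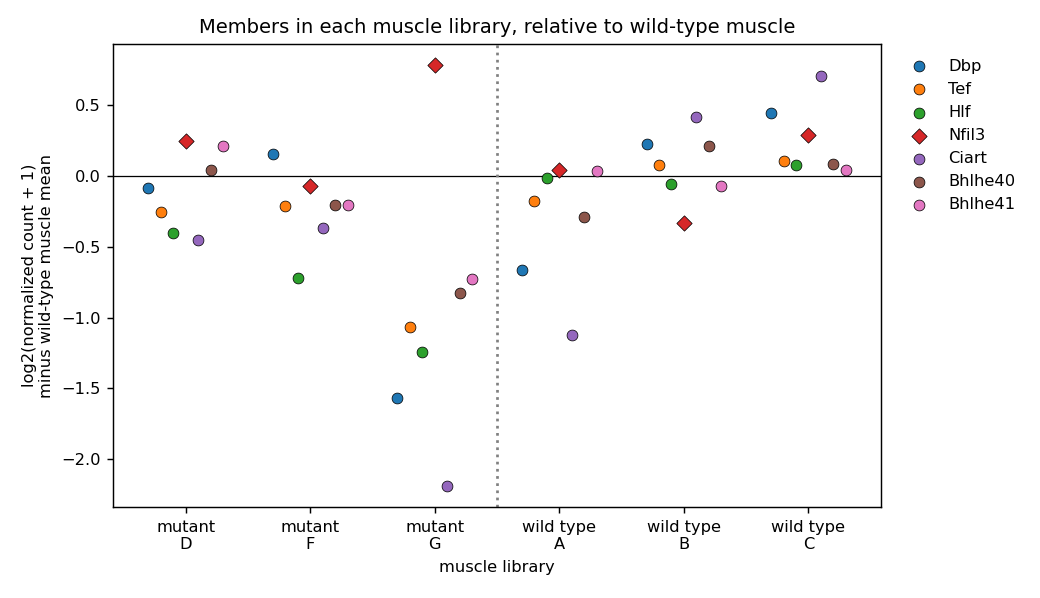
Log2(normalized count + 1) of the 7 genes in each muscle library minus the wild-type muscle mean of that gene; colours are genes and diamonds are Nfil3. In mutant G 6 genes lie below -0.7 and Nfil3 at 0.78, whereas in mutants D and F all 7 lie between -0.72 and 0.25.

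Summed markers of other cells also differed among the muscle libraries. The 7 adipocyte markers summed to 25992, 27665 and 86174 normalized counts in muscle of mutants D, F and G, against 36321, 27414 and 8364 in wild types A, B and C. The 8 fibre markers summed to 2032878, 1716342 and 1223657 in muscle of mutants D, F and G, against 1840537, 1930291 and 2314380 in wild types A, B and C. G was thus highest for adipocyte genes and lowest for fibre genes, while wild-type C was the reverse. The red cell markers summed to 4306, 3623 and 6001 in muscle of mutants D, F and G, against 2728, 2724 and 2867 in wild types A, B and C. The 6 slow fibre markers summed to 4157, 5541 and 5851 in muscle of mutants D, F and G, against 341, 5949 and 1158 in wild types A, B and C. The 8 male germ cell markers summed to 2797, 1069.6 and 1089 in muscle of mutants D, F and G, against 2323, 2091 and 2587 in wild types A, B and C. The low germ cell sums and the high islet sums were thus both in F and G, and slow fibre sums were low in wild types A and C. Pancreatic acinar markers summed to 325 to 482 in mutants and 153 to 307 in wild types, with Amy2b at 0 in all 3 wild types, the only marker of these lists at 0 throughout a muscle group. Macrophage markers summed to 2141 to 2771 in mutants and 2134 to 2444 in wild types, and endothelial markers to 6222 to 6885 in mutants and 5789 to 6860.5 in wild types. By direction of the mean, 6 of 6 slow fibre, 9 of 9 acinar, 12 of 12 islet, 7 of 7 adipocyte and 5 of 5 red cell markers tested had higher means in mutants, and 7 of 8 germ cell markers had lower ones. Their part in the differences above was not tested. In bulk tissue, fewer cells of a type and less RNA per cell cannot be told apart. Without libraries F and G, which held more islet transcripts, Hlf differed by -0.41, Tef by -0.26, Dbp by -0.09, Ciart by -0.45 and Nfil3 by 0.25 on the log2 scale, Bhlhe40 by 0.04 and Bhlhe41 by 0.21. Mutant D is then the only mutant, and it is assumed to vary like the wild types.

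In testis, 0 of the 7 genes passed the test between the libraries labelled mutant and the wild types, and 0 had an unadjusted limma p below 0.05, also 0 by edgeR and DESeq2 after adjustment. Among all 19543 genes tested in testis, 4 were called (0.0205%), and 7.09% had an unadjusted p below 0.05. Groups overlapped for all 7, while 13.4% of all genes had groups without overlap. Dbp had 125, 116 and 112 normalized counts in libraries labelled mutant D, E and F, against 101, 95.0 and 129 in wild types A, B and C, a log2 difference of 0.13 with an interval from -0.20 to 0.45. Tef had 649, 566 and 599 in libraries labelled mutant, against 629, 615 and 595 in wild types, and its interval was the narrowest of the 7, from -0.19 to 0.15. Hlf, which had the fewest normalized counts per kilobase of the 7 in testis, was at 20.2, 24.9 and 31.1 in libraries labelled mutant D, E and F, against 30.0, 30.0 and 32.6 in wild types A, B and C. Its log2 difference was -0.29, with an interval from -0.86 to 0.27.

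The 4 repressors also had overlapping groups in testis. Nfil3 had 70.6, 90.3 and 71.0 normalized counts in libraries labelled mutant D, E and F, against 85.6, 82.5 and 72.7 in wild types A, B and C. Ciart had 92.8, 99.4 and 95.9 in libraries labelled mutant, against 99.7, 96.6 and 81.0 in wild types. Library E was highest for Nfil3 and wild-type C lowest for Ciart, and in both genes the groups overlapped. Bhlhe40 had 75.6, 81.2 and 74.6 in libraries labelled mutant, against 91.8, 67.5 and 91.9 in wild types. Bhlhe41 had 51.4, 41.4 and 43.5 in libraries labelled mutant, against 45.0, 49.1 and 47.6 in wild types. The log2 differences of these 4 repressors lay between -0.10 and 0.06, and all 7 adjusted p-values were between 0.844 and 0.97. Within groups, Ciart had a coefficient of variation of 3.47% in testis labelled mutant and 10.8% in wild-type testis, against 54.3% in mutant muscle and 53.6% in wild-type muscle.

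Whether the genotype groups differed by another amount in muscle than in testis was tested as an interaction in a limma model of all 12 libraries. None of the 7 passed, and the lowest adjusted p was 0.589 (Tef). Of all 14677 genes tested 2 were called (0.0136%), and 0 of the 7 had an unadjusted p below 0.05, against 8.69% of all genes. edgeR and DESeq2 called 0 of the 7 as well. The difference of differences was -0.63 for Dbp, with an interval from -1.77 to 0.52, and -1.06 for Ciart, with an interval from -2.54 to 0.41. Without mutant G it was -0.09 for Dbp, -0.21 for Tef, -0.27 for Hlf, 0.14 for Nfil3 and -0.47 for Ciart.

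Lists of core clock genes, of genes that these factors act on or answer to, and of relatives of their DNA-binding classes were examined. They had 0 members called by limma in either genotype comparison or in the interaction. Beyond the 7 factors, an unadjusted p below 0.05 was reached in muscle by 6 of 37 genes tested (against 9.52% of all genes), Per1, Per2, Per3, Cry2 and Wee1 with lower means and Npas2 with a higher one, in testis by 4 of 41 (against 7.09% of all genes; Arntl2, Per1, Per2 and Csnk1e, all lower) and in the interaction by 2 of 37 (against 8.69% of all genes; Cry2 and Wee1). The 37, 41 and 37 genes tested pool all the lists and so include the C/EBP, Hes and Hey relatives, to which none of the genes just named belongs. Neither edgeR nor DESeq2 called any of the 14 genes named in muscle or the 13 named in testis. In muscle, 12 of 17 genes of the core clock loop had lower means in mutants, beside 9019 of all 16246 genes tested. The median log2 difference of the loop was -0.23. Per2, a repressor of CLOCK and BMAL1, had 111, 213 and 53.9 normalized counts in muscle of mutants D, F and G, against 236, 309 and 318 in wild types A, B and C. All 3 mutants lay below all 3 wild types, the log2 difference was -1.39 ± 0.39 (SE), and the adjusted limma p was 0.519. Cry2, its partner in repression, had groups without overlap and a log2 difference of -0.47. D-box-controlled clock genes (Per1, Per2, Per3 and receptor genes) had 5 of 6 lower means and a median of -0.51. Per1 differed by -1.11 and Per3 by -0.71, and their groups overlapped. E-box-controlled clock genes, which include Dbp, Bhlhe40 and Bhlhe41, had 7 of 9 lower means and a median of -0.24. The core, D-box and E-box lists share genes, among them Per1 and Per2, so their counts are not separate observations.

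RRE-controlled clock genes, which are repressed by the REV-ERB receptors and include Nfil3, had the other balance in muscle, with 5 of 6 higher means and a median of 0.30. Npas2, a relative of Clock that can take its place, had 38.8, 17.3 and 58.0 normalized counts in muscle of mutants D, F and G, against 14.8, 23.8 and 6.42 in wild types A, B and C. Mutant F lay within the wild types, the log2 difference was 1.30 ± 0.54 (SE), and the adjusted limma p was 0.519. Clock had 653 ± 197 in mutant muscle and 520 ± 91.9 in wild-type muscle (SD, n = 3 each). Without mutant G the log2 differences were -0.70 for Per1, -0.89 for Per2, -0.40 for Per3, -0.33 for Cry2, 0.92 for Npas2 and 0.12 for Clock, and without wild-type C that of Npas2 was 0.82. As for the members, G was the lowest muscle library for Per1, Per2, Per3 and Cry2, and the highest for Npas2, Clock and Arntl.

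Of 6 clock-controlled genes known to be rhythmic in many tissues, all 6 had lower means in mutant muscle, beside 9019 of all 16246 genes tested. Their median log2 difference was -0.44. Wee1, a kinase that holds back cell division, had 53.6, 46.9 and 30.0 normalized counts in muscle of mutants D, F and G, against 95.6, 64.9 and 93.7 in wild types A, B and C, without overlap. Its log2 difference was -0.96 and its adjusted limma p 0.519. Usp2, a deubiquitinase, differed by -0.58, with overlap, and by -0.25 without mutant G. The metabolic genes known from liver to follow the PAR bZIP factors had 2 higher and 2 lower means of 4 tested and a median of -0.03. Among them Pdxk, the pyridoxal kinase, differed by -0.40 and Alas1, which makes the first intermediate of haem, by -0.07.

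Relatives of the same DNA-binding classes had means in both directions in muscle. Of 5 C/EBP bZIP genes tested, 3 had higher and 2 lower means, with a median of 0.08. Cebpa, a factor of adipocytes and liver, had 985 to 2973 normalized counts in mutant muscle and 326 to 2014 in wild-type muscle, and its highest library was G and its lowest wild-type C, as for the adipocyte sum. Cebpb differed by -0.31. Of 5 Hes and Hey genes, which are helix-loop-helix repressors like Bhlhe40 and Bhlhe41, 2 had higher and 3 lower means, with a median of -0.04. Hes1 differed by 0.36 and Hes6 by 0.24, and the groups of both overlapped.

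In testis the medians of these lists were between -0.24 and 0.04, against 0.03 over all genes. The core clock loop had 7 higher and 10 lower means of 17, the E-box list 4 and 5 of 9, the D-box list 1 and 5 of 6, and the RRE list 4 and 2 of 6. Over all 19543 genes tested in testis, 11642 had higher and 7901 lower means. Csnk1e, a kinase that marks PER proteins for destruction, averaged 36.1 ± 9.31 normalized counts in libraries labelled mutant and 55.9 ± 10.3 in wild types (SD, n = 3 each). Per2 averaged 94.2 ± 17.8 in libraries labelled mutant and 121 ± 5.52 in wild types, with a log2 difference of -0.38, no overlap and an adjusted limma p of 0.696. The metabolic list had 2 higher and 3 lower means of 5, the rhythmic list 4 and 2 of 6, the C/EBP list 2 and 3 of 5, and the Hes and Hey list 2 and 6 of 8. Por, the electron donor of the cytochrome P450 enzymes, averaged 275 ± 15.3 in libraries labelled mutant and 315 ± 13.6 in wild types, and the groups did not overlap. Nampt, Wee1, Ddit3, Cebpg, Nr1i3, Arntl, Npas2 and Per1 differed by -0.21 to 0.31 on the log2 scale. Hes2 and Heyl were close to the minimum of 10 normalized counts set for testing, with means of 8.17 and 9.14 in libraries labelled mutant and 15.3 and 15.9 in wild types.

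Between wild-type muscle and wild-type testis, the core clock loop had 10 genes called higher and 4 lower of 17 tested, beside 37.3% called higher and 50.6% called lower of all genes. Nr1d1 and Nr1d2, the REV-ERB receptors that repress Nfil3, were 13.7-fold and 8.03-fold higher in muscle. Cry1, by contrast, averaged 238 ± 29.0 normalized counts in muscle and 630.1 ± 23.4 in testis (SD, n = 3 each), a log2 difference of -1.41. The D-box list had 5 called higher, led by Nr1d1, and 1 lower of 6. All 4 metabolic genes tested were called higher in muscle, with Nr1i3, a xenobiotic receptor, at 10.6-fold and Alas1 at 1.26-fold. The rhythmic list was split, with 3 called higher and 3 lower of 6: Tsc22d3, a glucocorticoid-induced gene, was 22.8-fold higher, while Wee1 had 84.8 ± 17.2 in muscle and 624 ± 41.9 in testis. The E-box list had 7 called higher and 2 lower of 9, and the RRE list 3 higher and 1 lower of 6. Among relatives, 3 of 5 C/EBP genes were called higher and 1 lower, and 4 of 6 Hes and Hey genes higher and 1 lower. Heyl was 12.2-fold higher, while Hes2 was listed at 0 in all 3 wild-type muscle libraries and averaged 15.3 in testis.

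The genes most like each member over the 12 libraries were found by the root mean square distance of log2 values centred on each gene's mean, among 12782 genes with a mean of at least 50. The tissue difference dominates this measure, and the libraries share their depth and scaling. Bhlhe40 was closest to Xirp1, an actin-binding protein of striated muscle, at 0.09, and to Idh3a, a subunit of mitochondrial isocitrate dehydrogenase, at 0.15. Tef was closest to Camk2g (0.11) and Kif13a (0.14), Bhlhe41 to Slc6a8, the creatine transporter (0.14), and Nfix (0.14), and Hlf to Arhgef17 (0.18) and St3gal2 (0.19). Nfil3 was closest to the ribosomal protein gene Rps3 (0.18) and to Ndufa6 (0.19), a subunit of respiratory complex I. Rps3 had its highest muscle value in library G, 7599 normalized counts, against 4708 to 6750.4 in wild types. Dbp was closest to Pde4dip (0.33) and Ank (0.35), and Ciart to Fosb (0.40) and Rnf169 (0.44), which were the largest nearest distances among the 7. The median distance over all genes ranged from 1.14 to 2.47 among the members.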

How the data were processed

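PolyA RNA of 12 tissue samples was sequenced in pairs of 150-base reads, per the labels' protocols. Tools listed without a role in the submitters' processing notes are DESeq2 1.46.0, HTSeq 0.11.2, HISAT2 2.1.0, fastp 0.23.4 and Picard 1.119, and the build listed is GRCm38.p4. The authors deposited signal values per gene (reads scaled by a size factor for each library) and a table of rlog values on the log2 scale. All values, divided by each library's step, gave whole reads to within 0.01, which set the depth. In both deposited tables, testis D had 26 values that had become dates; they were treated as missing. None belongs to the 7 genes.

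Groups were compared with limma 3.58.1 (trend, two-sided) in R 4.3.3 on log2(normalized count + 1), for genes with at least 10 in 3 or more of the fit's libraries. For the interaction, this was required in muscle and in testis separately. Adjustment was by Benjamini-Hochberg over all genes tested. With 3 against 3, an exact permutation test cannot go below 0.1. Labels do not name litters or cultures, so p-values measure the spread between these mice. Alternatives were pseudocounts of 0.5 and 8, no filter, a mean of at least 50, TMM, median-of-ratios scaling, rlog, no trend, edgeR 4.0.16 and DESeq2 1.42.0 on recovered reads, 1 model of all libraries, a mouse block, and leaving out libraries.

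The 7 genes and all lists were chosen with earlier results of these data known. Named besides the 7 were up to 4 called genes of a list by smallest p, or else the 2 with the smallest p, and the 2 genes nearest each member. Arntl in muscle and Arntl2 in testis were set beside them after their values were seen. Columns carry mouse numbers that the titles' replicate numbers do not match. No promoter entry was used for Bhlhe40.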

Additional observations from a re-analysis of the deposited data

Results flagged for a closer look

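Bckdk differed between the tissues in its genotype difference, by -8.14 on the log2 scale in the limma model of all 12 libraries (muscle minus testis, adjusted p = 1.26e-10), with mutants lower in 3 of 3 muscle libraries and libraries labelled mutant higher in 3 of 3 testis libraries.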

How the results depend on the processing

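Of the 7 genes, 0 were called between genotypes or in the interaction under every alternative run, except that leaving out 1 library at a time gave 0 to 1 called lower in muscle. Between the wild-type tissues 6 were called higher, and 7 under edgeR, under DESeq2 and without wild-type muscle A, Ciart being the addition. That 1 was Hlf without mutant D, where 497 genes in all were called, against 6 with all libraries. Leaving out F and G turned the sign of the muscle difference of Bhlhe40 (0.0372), Bhlhe41 (0.208), Alas1 (0.115) and Cebpa (-0.0135), none of which was called. With 1 library left out at a time, the muscle difference ranged from -0.834 to 0.0318 for Dbp and from -0.469 to 0.000219 for Bhlhe41, above 0 without mutant G, from -0.0787 to 1.23 for Cebpa, below 0 without wild-type C, and from -0.511 to 0.0033 for Cebpb, above 0 without mutant D. In testis the sign turned without wild types A and B for Dbp (-0.138), Tef (0.0196) and Nfil3 (0.0789), which leaves wild-type C alone, assumed to vary like the other group. With 1 library left out, testis differences ranged from -0.0319 to 0.116 for Ciart (below 0 without wild-type C), from -0.175 to 0.0011 for Nfil3 (above 0 without library D), from -0.0747 to 0.0244 for Tef and from -0.15003 to 0.0026 for Bhlhe41 (both above 0 without library E). The interaction ranged from -0.412 to 0.02002 for Bhlhe40 and from -0.40960 to 0.0601 for Bhlhe41, above 0 without mutant G. The cause of these turns was not tested. DESeq2 called 36 genes in muscle, 10 in testis and 50 in the interaction, where limma called 6, 4 and 2, and 1 model of all libraries called 28 in muscle. Without mutant D the interaction called 951. In testis, 1 to 6 genes were called with 1 library left out and 0 without a trend.

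No paired analysis was possible within a tissue because the genotype groups share no mouse number. Between tissues, deviations of the same mouse number correlated at -0.04 to 0.01 over 14677 genes in 5 mice. No shared mouse effect was seen, which cannot tell whether equal numbers stand for the same mouse. The mouse block, with correlations of -0.05 in the interaction and -0.02 between tissues, moved no call of the 7 genes, with Ciart at 0.79 and an adjusted p of 0.12.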
